A study of Mus musculus with 4 samples.

Results

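The keratins described here are Krt4, Krt5, Krt7, Krt8, Krt13, Krt14, Krt15, Krt18, Krt19 and Krt20, a set that covers the basal, intermediate and superficial layers of the urothelium, the epithelium that lines the ureter. They are 10 of the 18193 genes that the array's annotation names. Every probe set annotated to exactly 1 gene symbol was taken when that symbol was among them, which gave 17 of the 45037 probe sets that are not controls. Krt8, Krt13 and Krt14 had 3 probe sets each, Krt4 had 2 and the other 6 genes had 1. They were read on 3 arrays of ureter and 1 array of whole newborn mouse.

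Ureters were freed from kidney and bladder of male FVB/N mice at postnatal day 1 (Theiler stage 27) that carried an SMGA/EGFP transgene, a green fluorescent protein reporter named for the smooth muscle gamma-actin gene. Each ureter sample was hybridised on its own and not pooled. The whole-mouse reference was a pool of undissected FVB/N mice of both sexes and the same age without the transgene, so the groups differ at once in tissue, transgene, sex and pooling, and these cannot be told apart. All RNA went through 2 rounds of amplification on Affymetrix MOE430 arrays. The question is which keratin transcripts the ureter holds more or less of than the average of the newborn animal. No label ties the ureters to different animals. The p-values therefore rest on the spread of 3 samples that may be technical replicates, and the reference with its 1 array was assumed to vary like the ureters. In such bulk tissue, fewer cells of a type and less RNA per cell cannot be told apart.

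Keratins are the intermediate filament proteins of epithelia. Each filament is built from pairs of an acidic type I and a basic type II keratin, and the pair in use changes with the layer and kind of epithelium. Krt8 with Krt18 is the pair of simple epithelia, joined by Krt7 and Krt19 in many ducts and in urothelium. Krt20 marks the umbrella cells at the urothelial surface. Krt5 with Krt14 is the pair of basal cells in stratified epithelia such as epidermis, where Krt15 is also basal, and Krt4 with Krt13 is the pair of the upper layers of moist stratified epithelia such as the oesophagus.

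In mouse the genes lie in 2 clusters, the type I genes on chromosome 11 and the type II genes on chromosome 15, with type I Krt18 at the edge of the latter. In the RefSeq gene table, Krt13, Krt15 and Krt19 followed each other with 0 protein-coding genes between them, and Krt8 and Krt18 likewise. Krt4 was separated from Krt8 by 2 genes, both keratins. Promoters of 7 of the 10 genes were found in the RefSeq promoter table (build GRCm38.p6). The 100 bases before the listed start are shown for these members, first Krt7, Krt8, Krt18 and Krt20, which lay above the reference in every ureter, then Krt5, Krt14 and Krt13, which lay below it, so that the 2 sets can be compared. The capitals mark matches to the motifs searched.
Krt7, chr15:101412303-101412402, plus strand: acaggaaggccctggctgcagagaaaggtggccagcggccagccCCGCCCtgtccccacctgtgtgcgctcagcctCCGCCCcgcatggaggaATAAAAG
Krt8, chr15:102004343-102004442, minus strand: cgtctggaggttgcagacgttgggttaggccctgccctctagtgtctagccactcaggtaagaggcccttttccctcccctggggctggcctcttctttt
Krt18, chr15:102028116-102028215, plus strand: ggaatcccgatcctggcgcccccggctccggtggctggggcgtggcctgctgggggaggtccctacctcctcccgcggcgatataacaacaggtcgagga
Krt20, chr11:99438154-99438253, minus strand: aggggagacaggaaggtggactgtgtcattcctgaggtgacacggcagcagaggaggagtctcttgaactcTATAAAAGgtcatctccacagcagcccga
Krt5, chr15:101712906-101713005, minus strand: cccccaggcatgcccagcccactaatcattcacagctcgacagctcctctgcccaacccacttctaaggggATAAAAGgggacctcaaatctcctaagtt
Krt14, chr11:100206031-100206130, minus strand: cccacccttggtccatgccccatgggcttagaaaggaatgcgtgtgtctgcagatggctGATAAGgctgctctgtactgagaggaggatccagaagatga
Krt13, chr11:100121567-100121666, minus strand: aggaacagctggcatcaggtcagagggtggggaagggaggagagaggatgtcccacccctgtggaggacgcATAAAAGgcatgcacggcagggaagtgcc

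The motifs were searched on both strands of the 250 bases before the start in all 32851 promoters of the table. The TATA box TATAAA was found before Krt20 and before no other of the 7 members searched, against 12.4% of all promoters. A longer TATA-like run, ATAAAAG, was chosen after the sequences had been read and overlaps the TATA box of Krt20. It stood 29 to 23 bases before the start of Krt5 and of Krt13, 28 to 22 bases before that of Krt20 and 7 to 1 bases before that of Krt7, against 4.83% of all promoters. The Sp1 box GGGCGG occurred before Krt7 alone of the 7, at 4 places, against 32.7%. Of these places 2 lie in the stretch shown, in reverse complement. The GATA motif CTTATC lay before Krt14, in reverse complement, and before Krt8 upstream of the stretch shown, against 6.55%. The AP-1 motif TGANTCA preceded Krt13, upstream of the stretch shown, and also its second listed start, against 6.75%. The grainyhead-like motif AACCGGTT was before none of the 7 genes, against 0.116%. A match describes the letters alone.

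The deposited intensities were on a linear scale, and each array had been scaled to a trimmed mean of 1500. Their medians nevertheless differed (154, 259 and 187 in ureters 1, 2 and 3 and 332 in the reference), so arrays were quantile normalized and differences are given on the log2(intensity + 12.23) scale as ureter minus reference, each with the standard error (SE) from limma. Background was taken as the highest of 27 control probe sets for bacterial transcripts, which lay at 57.2, 212, 102 and 188 on the same arrays. Probe set names ending in _x_at hold probes that can also match other sequences, and those ending in _a_at cover several transcripts of 1 gene. Against the tissue label, markers of urothelium and of smooth muscle were read. In each list 5 of 6 genes passed the threshold as higher, against 2.94% of all genes tested. Among them were Upk1b (5.65 ± 0.29), Upk3a (5.75 ± 0.41), Myh11 (3.14 ± 0.28) and Tagln (3.03 ± 0.24).

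The 10 keratins parted into 5 that lay above the whole-mouse reference in every ureter and 5 that lay below it. Krt7, Krt8, Krt18, Krt19 and Krt20, the keratins of simple epithelium and of umbrella cells, were those above the reference. Krt4, Krt13, Krt5, Krt14 and Krt15, the keratins of stratified epithelium, were those below it. Of 15 keratin probe sets that could be tested, 6 were higher and 6 lower at an adjusted p under 0.05 (limma, Benjamini-Hochberg over 27022 probe sets), and 3 did not pass. Over all probe sets tested, 2.68% were higher and 3.49% lower, 6.17% in all. At the brightest probe set of each gene 4 of the 10 genes were higher and 4 lower, against 2.94% and 4.77% of 13721 genes (7.71% in all), and Krt5 and Krt20 did not pass. In the deposited intensities all 3 ureters lay above the reference at 7 keratin probe sets and all 3 below it at 10. Of all tested probe sets, 28.5% had every ureter above and 38.6% every ureter below. The 10 include the 2 keratin probe sets that were not tested, of which 1455573_at of Krt14 was at background on every array.

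**Figure D1:**
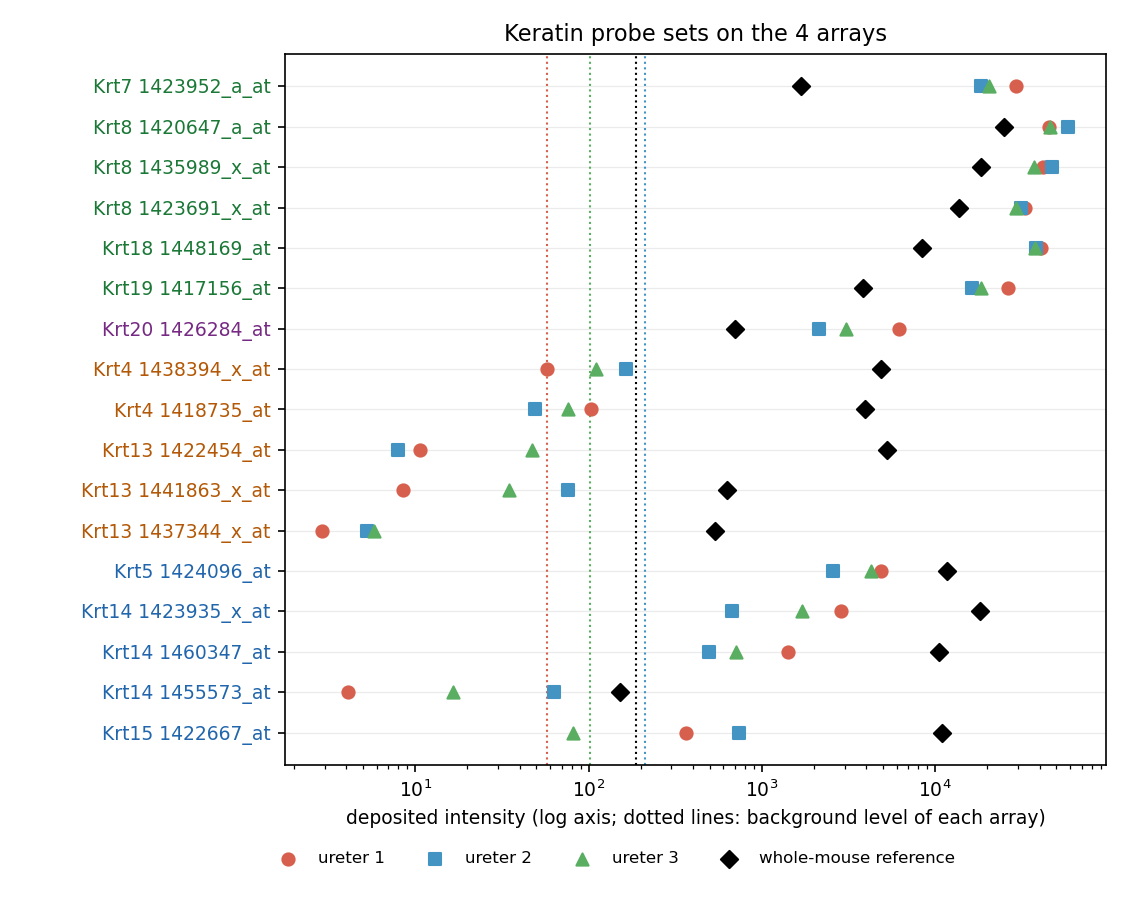
Deposited intensity (log axis) of the 17 keratin probe sets in ureters 1, 2 and 3 and in the whole-mouse reference; dotted lines mark the background level of each array in its colour, and label colours mark simple (green), superficial (purple), suprabasal (orange) and basal (blue) keratins. The reference lies to the left of all ureters for Krt7, Krt8, Krt18, Krt19 and Krt20 and to the right for the other 5 genes.

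Krt7, a type II keratin of ducts and urothelium, had the largest increase of the set. Its intensity was 29067, 18490 and 20324 in ureters 1, 2 and 3 and 1684 in the reference, so all ureters lay far above the reference and the groups did not overlap. The difference was 3.81 ± 0.35 (14.0-fold, adjusted p = 0.00706), larger than that of 99.8% of tested probe sets. It passed the threshold under all 10 alternatives, with differences from 3.56 to 4.44.

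Krt18, the type I partner of Krt8, was also bright in every ureter. Its intensities were 40562, 38279 and 37721 in the ureters and 8350 in the reference. The highest ureter was 1.08 times the lowest as deposited and 1.27 times after quantile normalization. The difference was 2.19 ± 0.20 (4.58-fold, adjusted p = 0.00748), and it missed the threshold only when the fit had no intensity trend (adjusted p = 0.0552).

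Krt8, the type II member of that pair, rose at each of its probe sets. At its brightest probe set (1420647_a_at) the intensities were 45442, 58737 and 45678 in the ureters and 24811 in the reference. The second (1435989_x_at) read 41718, 47253 and 37346 against 18485, and the third (1423691_x_at) 32790, 31126 and 29148 against 13721. All 9 ureter readings exceeded the reference reading of their probe set. The 3 probe sets gave closely similar differences of 1.06 ± 0.15 (2.09-fold, adjusted p = 0.0172), 1.18 ± 0.18 (2.27-fold, adjusted p = 0.0209) and 1.14 ± 0.20 (2.20-fold, adjusted p = 0.0292). Whether Krt8 and Krt18 differed in their change was not tested. All 3 Krt8 calls ended without ureter replicate 3 (adjusted p = 0.0871, 0.087 and 0.122), with no filter (0.0558, 0.0552 and 0.0665) and without the trend (0.167, 0.15 and 0.162). The brightest also lost its call with the scaling as deposited (0.0599).

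Krt19, the smallest keratin, which lacks most of the tail domain, rose as well. Its intensities were 26460, 16270 and 18293 in the ureters and 3844 in the reference, with ureter 1 highest and no overlap between the groups. The difference was 2.31 ± 0.34 (4.96-fold, adjusted p = 0.0209). The call was lost without ureter replicate 3 (adjusted p = 0.0875) and without the intensity trend (0.0759).

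Krt20, the umbrella cell keratin, lay above the reference in every ureter but did not pass the test. Intensities of 6141, 2130 and 3056 in the ureters stood against 698 in the reference, and ureter 1 was 2.88 times ureter 2. The difference was 2.57 ± 0.59 (5.93-fold, 95% interval 1.13 to 4.0, adjusted p = 0.0604). It passed without ureter replicate 2 (2.92, adjusted p = 0.0346) and with the stricter filter on dim probe sets (adjusted p = 0.0398), and its adjusted p over all 10 alternatives ran from 0.0346 to 0.184. Its SE was larger than those of Krt18 and Krt19.

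Among the suprabasal keratins, Krt13 was at background in every ureter. At its brightest probe set (1422454_at) the intensities were 10.7, 7.98 and 47.5 in the ureters and 5303 in the reference. With the ureters set to their background level the gene was at least 38.8-fold lower (adjusted p = 0.0170 for the measured difference of -7.32 ± 0.99), and it passed under all 10 alternatives. The log2 ureter mean of this probe set, 5.15, was under the filter cutoff of 7.14. It was tested only because of the reference (12.47), so in the main fit Krt13 could only be called lower. Its other probe sets pointed the same way: 1441863_x_at read 8.46, 76.3 and 34.9 against 630, at least 3.45-fold lower, and did not pass (adjusted p = 0.116). The dimmest, 1437344_x_at, read 2.91, 5.25 and 5.77 against 538, at least 2.86-fold lower, and was removed by the filter on dim probe sets. When all probe sets were tested it passed (adjusted p = 0.0324).

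Krt4, the partner of Krt13, was near background in the ureters and bright in the reference. At 1438394_x_at the intensities were 57.7, 165 and 110 in the ureters, of which the first and the last lay just above their arrays' background, and 4887 in the reference. At 1418735_at they were 103, 49.1 and 76.3, with ureter 1 alone above background, and 3947 in the reference. The groups were far apart at both, with differences of -5.23 ± 0.52 (adjusted p = 0.00895) and -5.34 ± 0.77 (adjusted p = 0.0196). The former passed under all 10 alternatives and the latter under 9, the exception being the omission of ureter replicate 3 (adjusted p = 0.0740). Their log2 ureter means, 7.11 and 6.69, were under the filter cutoff of 7.14. Both were thus tested only because of the reference and could only be called lower in the main fit.

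The basal keratins were detected in the ureters, at lower levels than in the reference. Krt5 had intensities of 4897, 2562 and 4256 in the ureters, all well above background, and 11676 in the reference. The difference of -1.74 ± 0.41 (3.35-fold, 95% interval -2.74 to -0.75) did not pass over all probe sets (adjusted p = 0.0635). It was the smallest decrease among the tested keratin probe sets and depended on the processing: it passed without ureter replicate 1 (adjusted p = 0.0468), without replicate 2 (0.0445) and with the stricter filter (0.0482). With median-centred arrays the difference shrank to -0.90 (adjusted p = 0.45).

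Krt14, the type I partner of Krt5, was lower at both of its bright probe sets. 1423935_x_at read 2870, 674 and 1697 in the ureters and 18227 in the reference, and 1460347_at read 1408, 496 and 710 and 10464. All ureters lay below the reference, ureter 1 nearest to it and ureter 2 farthest. The differences were -3.68 ± 0.78 (12.8-fold, adjusted p = 0.0494) and -3.76 ± 0.65 (13.6-fold, adjusted p = 0.0298). Both calls ended without ureter replicate 3 (adjusted p = 0.137 and 0.107), with median-centred arrays (0.0937 and 0.0587), with no filter (0.0803 and 0.0508) and without the trend (0.106 and 0.0705), and the first also with an offset of 1 (0.0552). The remaining probe set, 1455573_at, was at background on every array, the reference included (4.09, 63.6, 16.4 and 153), and gives no fold.

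Krt15, a keratin of basal cells and of the hair follicle bulge, was low in the ureters and varied between them. Its intensities were 364, 739 and 81.8, of which the last was below background, against 10982 in the reference. The difference was -5.07 ± 0.97 (adjusted p = 0.0385), and the ureter nearest to the reference, ureter 2, still differed from it by -4.02. The call ended with no filter (adjusted p = 0.0684) and without the intensity trend (0.0870).

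**Figure D2:**
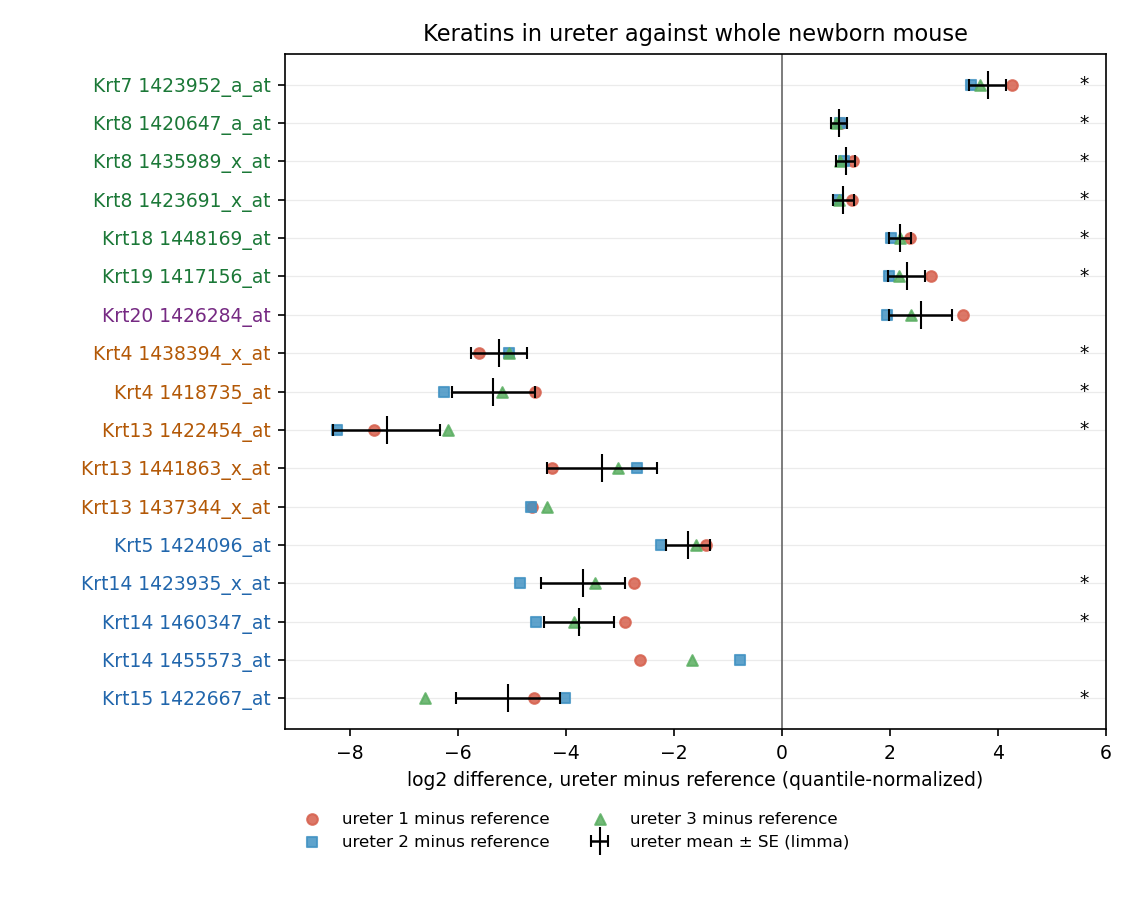
Log2 difference from the whole-mouse reference for each ureter (points) and for the mean of the 3 ureters with the SE of the limma fit (black bars, tested probe sets); asterisks mark an adjusted p under 0.05, and label colours mark the same 4 roles. Krt7 lies farthest to the right at 3.81, Krt4 and Krt13 lie far to the left, where the Krt13 positions are at background in every ureter and give only a bound, and Krt5 and Krt20 carry no asterisk.

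In gene order, the direction changed between neighbours. Within the run Krt13, Krt15 and Krt19, the first was at least 38.8-fold lower and Krt15 lower by -5.07, whereas Krt19 was higher by 2.31. Krt8 and Krt18, which adjoin each other, were both higher, while Krt4, separated from Krt8 by 2 genes, was lower, its least extreme ureter value being -4.57 from the reference.

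Leaving out ureter replicate 3 had the largest effect of the omissions. The keratin probe sets past the threshold fell from 12 to 5, those of Krt7, Krt18, Krt13, Krt15 and 1438394_x_at of Krt4, while over all probe sets the calls fell from 1667 to 317. All 15 tested keratin probe sets kept their sign under every alternative in which they were tested.

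The other keratins of the array were read beside these 10. Of 38 other keratin genes, most of them of epidermis, nail and hair, 34 were tested, 18 were lower and 0 higher in limma, against 4.77% and 2.94% of all genes. At an unadjusted p under 0.05, 28 were lower and 0 higher, against 1713 and 1895 of all 13721 genes tested. Of the 38, 18 were at background in every ureter. Those of them that were tested passed the filter on dim probe sets only through the reference, so they could only be called lower. The counts and the median difference of this list are limited by that. Krt6b, a keratin of stressed epidermis, was at least 210.0-fold lower (adjusted p = 0.00690), Krt1 of the upper epidermis at least 87.4-fold (0.00542), Krt25 at least 65.5-fold (0.0129) and Krt27 at least 46.1-fold (0.0106), the last pair being hair follicle keratins. Krt42 (-0.63) and Krt88 (0.50) did not pass. The median difference was -4.30 for these 34 genes, -0.34 for the 10 keratins and 0.10 for all genes tested. The keratin genes with a call in the higher direction were thus Krt7, Krt8, Krt18 and Krt19.

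**Figure D3:**
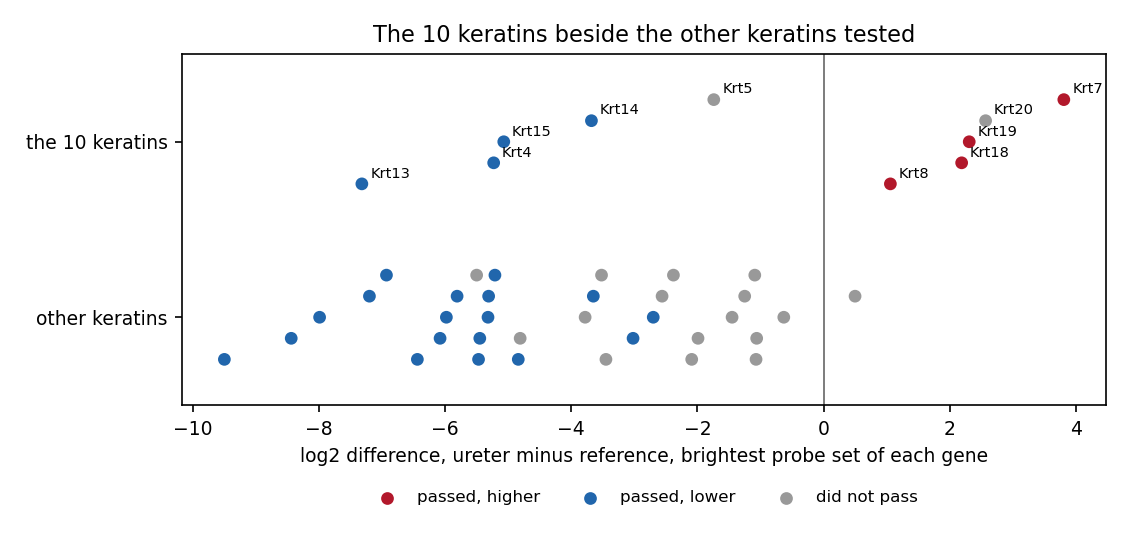
Log2 difference, ureter minus reference, at the brightest probe set of each of the 10 keratins (upper row, named) and of the 34 other keratins tested (lower row); colours mark genes past the adjusted p of 0.05 in each direction, and height within a row has no meaning. Krt7, Krt18, Krt19 and Krt8 are the red points, and the points of the lower row lie left of 0 apart from Krt88 at 0.50.

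Skin and gut form part of the whole-mouse reference. Of 10 cornified epidermis markers, 3 of them keratins counted above, 9 were tested and 8 were lower, against 4.77% of all genes tested. Their summed intensity was 9560 to 9942 in the ureters and 231165 in the reference. In the ureters Flg (at least 106-fold lower), Lce1c (at least 98.6-fold) and Dsg1a (at least 23.0-fold) were at background, as were Krt1 and Krt2. Those of them that were tested could only be called lower, as above. Lor lay at 110, 101 and 182 in the ureters against 46312 in the reference. All 5 intestinal epithelium markers were lower, and their sum was 700 to 999 in the ureters against 55315. The part of these tissues in the differences of the 10 keratins, higher or lower, was not tested.

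Genes whose products bind or anchor keratin filaments were read in the same way. Of 15 such genes 0 were higher, 2 were lower and 13 did not pass in limma, with a median difference of -0.30. Over all genes tested, 2.94% were higher and 4.77% lower. At an unadjusted p under 0.05, 0 of the 15 were higher and 4 lower, against 1895 and 1713 of all 13721 genes tested. Pkp1, a desmosomal plakophilin of stratified epithelia, was lower by -4.08 ± 0.44 (adjusted p = 0.0107) and Eppk1, the epithelial keratin-binding protein epiplakin, by -3.14 ± 0.58 (adjusted p = 0.0346). Dst (0.04), which anchors keratin to hemidesmosomes, and the keratin-binding Tchp (0.06) had the smallest differences.

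Among other intermediate filament genes 14 were tested in limma, of which 0 were higher and 2 lower, against 2.94% and 4.77% of all genes. At an unadjusted p under 0.05 the counts were 0 and 6, against 1895 and 1713 of all 13721 genes tested. Both that passed are genes of neurons: Nefl (-4.13 ± 0.44, adjusted p = 0.0107) and Ina (at least 15.0-fold, adjusted p = 0.0184). Vim, the filament gene of mesenchyme, read 54437, 72733 and 62636 in the ureters against 80876 and differed by -0.03 ± 0.14.

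Among 19 regulators of keratin genes or of urothelial and epidermal differentiation, 3 were higher, 0 lower and 16 did not pass. Over all genes tested, 2.94% were higher and 4.77% lower. Foxa1, a forkhead factor of urothelium, was higher by 3.57 ± 0.40 (adjusted p = 0.0122), the epithelial Ets factor Ehf by 3.02 ± 0.35 (adjusted p = 0.0130) and Gata3 by 2.01 ± 0.30 (adjusted p = 0.0210). The grainyhead-like gene Grhl2 (-0.03) and the receptor gene Notch1 (-0.04) differed least. At an unadjusted p under 0.05, 4 of the 19 were higher and 3 lower in limma, against 1895 and 1713 of all 13721 genes tested. Trp63, which drives Krt5 and Krt14 in basal cells and was chosen after its values were seen, read 25117, 11115 and 14739 in the ureters against 9262 in the reference. Its difference of 0.71 ± 0.46 did not pass (adjusted p = 0.404), and only 1 of its 4 probe sets was tested. At that probe set all ureters lay above the reference, and for Krt5 and Krt14 all lay below. A link between these levels was not tested.

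Among the keratins detected in the ureters, spread between the ureters was widest for Krt15, Krt14 and Krt20. The standard deviation (SD, n = 3) of the normalized log2 values was 0.05, 0.13 and 0.14 for the Krt8 probe sets and 0.17 for Krt18. It was 0.40 for Krt7, 0.41 for Krt19, 0.44 for Krt5 and 0.73 for Krt20. It was 1.07 and 0.83 for the bright Krt14 probe sets and 1.35 for Krt15, which was below background in ureter 3. Among the 1000 tested probe sets nearest in ureter level, the median SD was 0.35 and 0.39 for the Krt14 probe sets, 0.45 for Krt15, 0.30 for Krt20 and for Krt5, 0.20 for Krt7 and for Krt19, 0.15 for Krt18 and 0.15 to 0.17 for Krt8. The spreads of Krt14 (96.8th and 91.3rd percentile of those neighbours), Krt15 (95.1), Krt20 (93.6), Krt19 (90.5) and Krt7 (90.3) were wide for their brightness. Those of Krt5 (75.7), Krt18 (56.8) and Krt8 (8.1 to 40.4) ranked lower.

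The same ureters were high and low for several keratins. Ureter 1 was highest and ureter 2 lowest under all 3 scalings at 6 of the 10 keratin probe sets that were above background in every ureter, those of Krt5, Krt7, Krt14, Krt19 and Krt20. This order held for 17.8% of all tested probe sets above background. It held for 2 of 6 urothelium markers (Upk1b and Upk3a), for 6 of 18 keratin regulators, Trp63 and Foxa1 among them, for 5 of 15 filament partners and for 0 of 6 smooth muscle markers. For Krt8 and Krt18 the order of the ureters changed with the scaling. The arrays themselves ran the other way, with median intensity and background lowest in ureter 1 (154 and 57.2) and highest in ureter 2 (259 and 212). The part of this array difference in the order was not tested.

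Markers of other tissues also moved between the ureters. None of the 8 kidney tubule markers passed against the reference in limma. At an unadjusted p under 0.05, 0 of them were higher and 1 lower, against 1895 and 1713 of all 13721 genes tested. All 8 were lowest in ureter 1, and their summed intensity was 648, 11153 and 5310 in ureters 1, 2 and 3 and 8382 in the reference. Umod, the uromodulin gene of the kidney's thick ascending limb, chosen after its values were seen, lay at 32.9, 1993 and 917, the first at background. Collecting ducts of the kidney also express simple keratins. Without ureter 2, where the kidney sum was highest, Krt7 differed by 3.94, Krt8 by 1.02 at its brightest probe set, Krt18 by 2.23 and Krt19 by 2.45, and 14 of 15 keratin probe sets passed. Ureter 3, with the next highest kidney sum, stayed in that fit. Of 6 mesothelium markers 2 were higher, against 2.94% of all genes tested: Upk3b by 3.43 ± 0.42 and Wt1 by 2.71 ± 0.43. The list's sum was 44824, 27103 and 17408 in the ureters and 19884 in the reference. Upk3b alone gave 23747, 12913 and 12811 of the ureter sums. While 4 of the 6 were highest in ureter 1, Wt1 was lowest there in deposited intensity (1110, 1710 and 1647). Whether these genes mark mesothelium alone here was not tested. Mesothelium, the covering of the body cavity, also makes simple keratins. Without ureter 1, where the mesothelium sum was highest and the kidney sum lowest, Krt7 differed by 3.56, Krt8 by 1.10 at its brightest probe set, Krt18 by 2.18 and Krt19 by 2.09, and 13 of 15 keratin probe sets passed. Krt7 and Krt19 differed less without ureter 1 and more without ureter 2. This follows from ureter 1 being highest and ureter 2 lowest for both genes, so the omissions are no check on either tissue. Without ureter 3, Krt7 differed by 3.88 and Krt19 by 2.40, and the smaller number of calls in that fit is given above. The part of kidney tubule and of mesothelium in the keratin values was not tested.

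**Figure D4:**
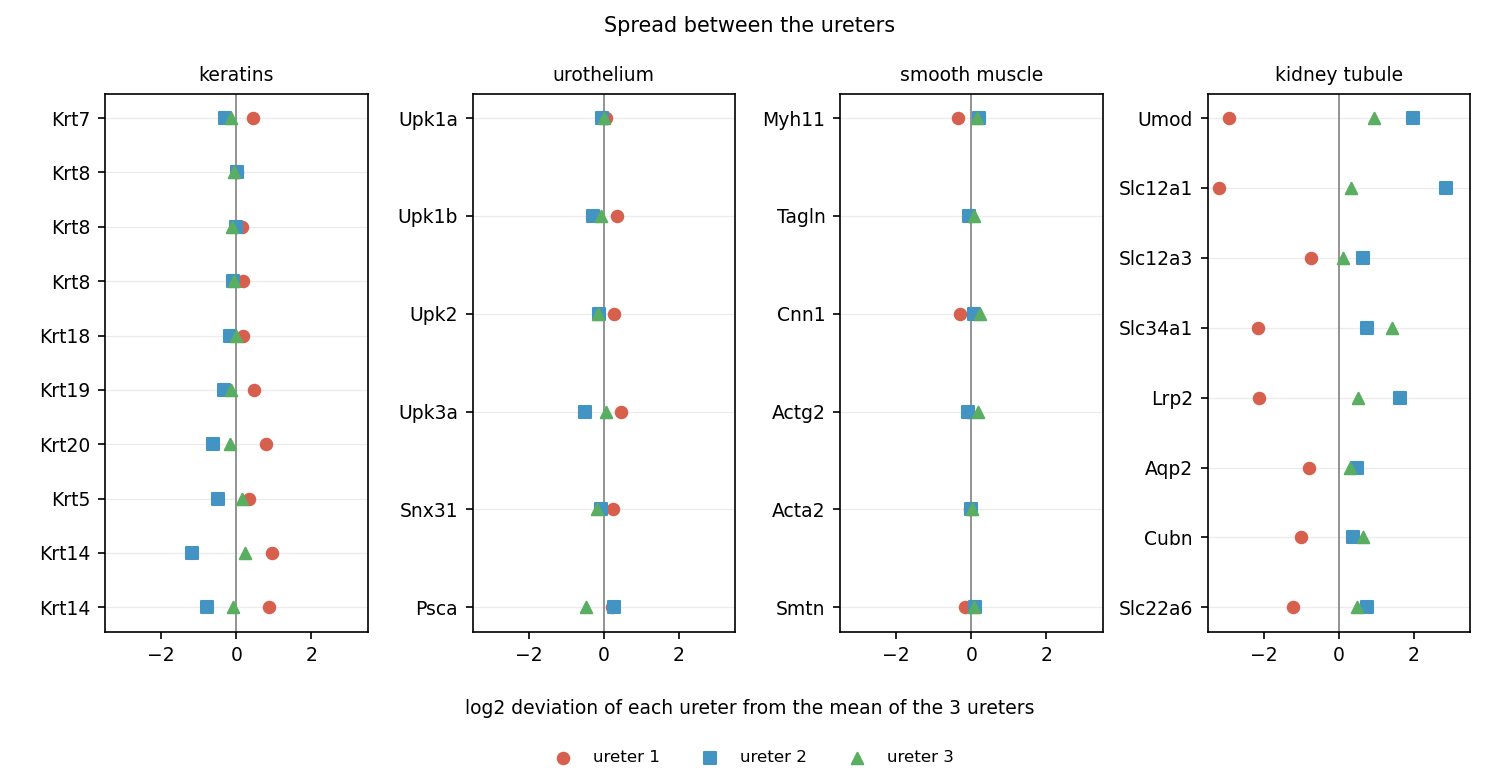
Log2 deviation of each ureter from the mean of the 3 ureters for the 10 keratin probe sets above background in every ureter and for urothelium, smooth muscle and kidney tubule markers. Ureter 1 lies to the right for Krt7, Krt14, Krt19 and Krt20 and to the left for all 8 kidney tubule markers, of which Slc12a1 spans from -3.20 to 2.87.

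Genes with the profile most like Krt5 and Krt19 over the 4 arrays were found by the root mean square distance of their mean-centred log2 values. For Krt5 these were Dclk1 (0.03), Lcat (0.05) and the asparagine synthetase gene Asns (0.05), and for Krt19 they were Polm (0.01), Dpy19l3 (0.02) and Grk5 (0.04). Dclk1 and Lcat read 143 and 99.4 in ureter 2, below its background of 212. Polm and Dpy19l3 read 127 and 137 in the reference, below its background of 188. These matches therefore rest in part on background readings. With 4 arrays many genes can share a profile by its 1 large step between reference and ureters. No other keratin was among them.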

How the data were processed

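The deposited values are intensities, 1 per probe set and array, scaled by the authors to a trimmed mean of 1500 (2% of probe sets left out at each end, as computed from the values). The submitters' processing notes name GCOS; its version and its handling of background are not given in the sources used here. The 10 keratins, the gene lists and the tests were chosen with earlier results of these data known. Of 45101 probe sets, 64 controls were left out. After quantile normalization, values became log2(intensity + 12.23), where 12.23 is the 10th percentile of the whole table. The dimmest 40% by the average of both group means were dropped, including 2 keratin probe sets, which left 27022. A probe set whose ureter mean lay under that cutoff passed only through the reference and could only be called lower. For a probe set dim in the reference the reverse holds. Symbols came from the platform annotation; 34945 probe sets carried 1 symbol, 932 several and 9160 none. The test was limma (3.58.1, in R 4.3.3): lmFit, then eBayes with trend, 2 residual degrees of freedom, two-sided, Benjamini-Hochberg adjusted over all probe sets, threshold 0.05. The number of arrays limits the precision. Where every ureter was at background, folds are lower bounds with each ureter raised to its array's background. Named list genes are up to 4 past the threshold with the largest difference and up to 2 that did not pass with the smallest. On simulated data for this comparison 27022 probe sets were tested. Of those changed by 1 on the log2 scale 38% were called, of those changed by 2 94% and of those changed by 4 100%. Among the unchanged ones 25 were called. The changed ones were drawn from probe sets bright in the ureters, and the simulated reference was given the ureters' spread. The shares therefore do not describe probe sets dim in the ureters or a reference that varies otherwise. Protein comparisons of the keratins were not analysed here. Alternatives varied scaling, offset, filter, trend, probe set summary and the ureters included. Promoters came from RefSeq (GRCm38.p6).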

Additional observations from a re-analysis of the deposited data

How the results depend on the processing

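Direction was stable and the number of calls was not. All 15 tested keratin probe sets kept their sign under each of the 10 alternatives in which they were tested, and those of Krt7, Krt13 (1422454_at) and Krt4 (1438394_x_at) passed under each. Over these probe sets and alternatives, 119 values stayed on their side of the threshold, 25 lost a call and 5 gained one. With no filter on dim probe sets, 7 keratin probe sets, 5 keratin genes and 1075 probe sets in all passed, where more probe sets were tested. Without an intensity trend in the variance, 4 keratin probe sets, 3 keratin genes and 904 probe sets passed, and the cause was not tested. Leaving out 1 ureter gave 5 to 14 keratin probe sets, 5 to 10 keratin genes and 317 to 2135 probe sets, the lowest each time without replicate 3, and a median SD between ureters of 0.25 to 0.55 for the keratins (0.44 with all 3). With the mean of a gene's probe sets, adjusted over genes, all 10 keratin genes passed, 5 higher and 5 lower. Higher calls made up 43.5% of all calls (725 up and 942 down) and 33.5% when the deposited scaling was kept (444 up and 882 down). They made up 15.1% without replicate 3 (48 up and 269 down), 29.8% without the trend (269 up and 635 down) and 37.0 to 48.0% under the others. The median difference of all tested probe sets was 0.11, against -0.13 with the deposited scaling and 0.60 after median-centring, and a small difference is to be read against it. No paired analysis was possible because the reference has 1 array, and replicate numbers were given in accession order and pair no samples. Signal over background limits Krt4, Krt13 and Krt15, which were at or near background in the ureters. The tested probe sets of Krt4 and Krt13 passed the filter of the main fit only through the reference. Their calls there could only be lower.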

Other observations

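Some transcripts known from cornifying epithelia were above background in the ureters. Ivl, which encodes the envelope protein involucrin, read 4472, 4623 and 4769 in the ureters against 2645 in the reference and did not pass at its brightest probe set (0.75 ± 0.31, adjusted p = 0.206), while its other probe set was called higher. Sbsn was lower (-3.35 ± 0.40, adjusted p = 0.0137), yet its ureter intensities were 4271, 3592 and 2309. Krt10, the partner of Krt1 in the upper epidermis, was at 496, 1309 and 2065 in the ureters, all above background, against 99605 in the reference, whereas Krt1 was at background in all 3. These genes, other than Ivl, were chosen after their values were seen.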
